A study of Mus musculus with 4 samples.

Results

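The 7 genes described here encode the class III phosphatidylinositol 3-kinase (PI3K) complex that starts autophagy, together with factors that bind to it: Pik3c3, Pik3r4, Becn1, Atg14, Uvrag, Nrbf2 and Ambra1. They were listed by name, and all 7 were found among the 21887 protein-coding genes of the RefSeq table used (assembly GRCm38.p6). For each gene, every peak was taken whose summit, the position of highest signal, lay inside the annotated span or within 5 kb of it on either side. Deaf1, a transcription factor, was mapped by chromatin immunoprecipitation and sequencing (ChIP-seq) in C2C12, a cell line of mouse myoblasts, the precursors of muscle fibres. There were 4 libraries: 2 from an anti-Deaf1 antibody and 2 inputs without antibody. The labels give all 4 the same cell line, with no genotype, treatment or time, and do not say whether replicates came from separate cultures. There was no second condition and no library of cells lacking Deaf1 was analysed here, so occupancy is described and no change in it was measured.

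In background, Pik3c3 (Vps34) is a lipid kinase that makes phosphatidylinositol 3-phosphate (PI3P) on membranes, and proteins that read this lipid then build the autophagosome. Pik3r4 (Vps15) and Becn1 (Beclin 1) are shared by its main forms. Atg14 directs the kinase to autophagosome formation and Uvrag to endosomes, and these exclude each other. Nrbf2 joins the Atg14 form, and Ambra1 is a scaffold that binds Becn1. Skeletal muscle depends on autophagy for the turnover of proteins and mitochondria, and by its title the study links Deaf1 to muscle regeneration by way of autophagy. Deaf1 binds DNA through a SAND domain and recognises CpG-containing sites built around TTCG.

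Peaks were called at 3 of the 7 genes, and at only 2 of them, Pik3c3 and Becn1, in both libraries. Replicate 1 had a peak at 2 of the 7 genes, where 9.68% of all protein-coding genes had one. Replicate 2 had a peak at 3 of the 7, where 14.5% of all genes had one. The third was Pik3r4. The authors' combined list of peaks found in both libraries had a region at 2 of the 7, against 9.01% of all genes. The peaks were thus at the genes for the catalytic subunit and both shared subunits, but at Pik3r4 in replicate 2 alone. The Becn1 region lay at the lowest score of the combined list. The 4 genes for the form-specific subunits and associated factors, Atg14, Uvrag, Nrbf2 and Ambra1, had none in any list. A split of the complex by role was not tested. A count of 7 genes cannot tell these shares from the background with any precision.

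Near a gene end the counts were lower. Within 1 kb of either end of the span, replicate 1 had a summit at 1 of the 7 genes (7.43% of all genes), replicate 2 at 2 (11.1%) and the combined list at 1 (6.88%). Gene spans differ in length, which the span rule does not adjust for. The longest of the 7 were Uvrag with 254.4 kb and Ambra1 with 188.7 kb, against a median of 17.2 kb over all protein-coding genes, and neither held a peak. Becn1, with a peak in both libraries, had the shortest span, 14029 bp, and was the sole gene of the 7 below that median. Pik3c3 spanned 82.5 kb and counted through the span rule alone, with no summit within 1 kb of an end. Starts inside its span were not used. Any part of span length in the counts was not tested.

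**Figure D1:**
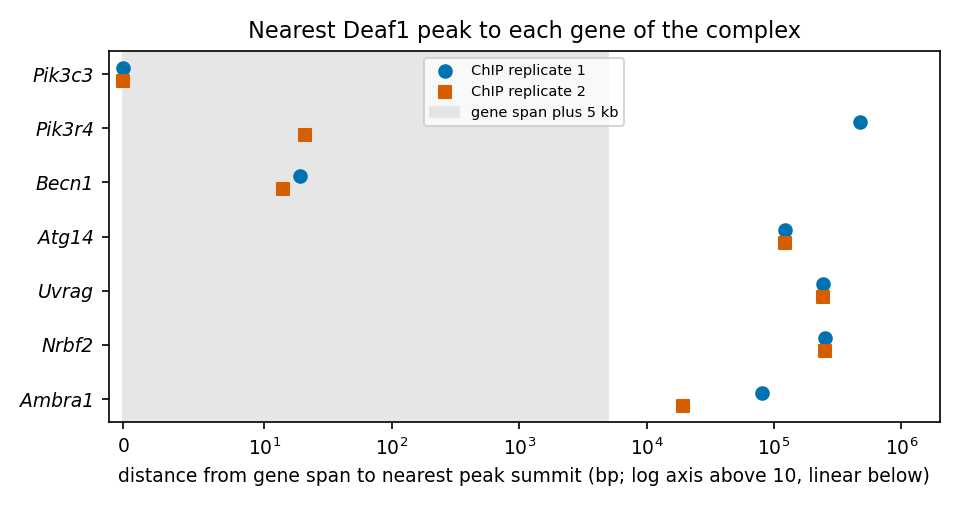
Distance in bp from the annotated span of each gene of the complex (rows) to the nearest peak summit of ChIP replicate 1 (circles) and replicate 2 (squares), with 0 for a summit inside the span; the axis is logarithmic above 10 bp and linear below. Pik3c3 and Becn1 have a summit of both libraries inside the grey window of 5 kb, Pik3r4 of replicate 2 alone, and the nearest summits of the other 4 genes lie between 19271 and 250994 bp away.

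Promoter sequences show what the antibody signal was set against at Pik3r4, where a peak fell inside the promoter window, and at 2 genes without a peak, Ambra1 and Nrbf2. RefSeq promoters on GRCm38.p6 were at hand for 5 of the 7 genes, running from 250 bases before to 50 bases after the annotated start. Pik3c3 and Becn1 had no entry. The 250 bases before the start are printed 5′ to 3′ on the strand of the gene, and capitals mark TTCG or its reverse complement CGAA. They are Pik3r4 at chr9:105642745-105642994 (plus strand), Ambra1 at chr2:91729888-91730137 (plus strand) and Nrbf2 at chr10:67285282-67285531 (minus strand).
Pik3r4: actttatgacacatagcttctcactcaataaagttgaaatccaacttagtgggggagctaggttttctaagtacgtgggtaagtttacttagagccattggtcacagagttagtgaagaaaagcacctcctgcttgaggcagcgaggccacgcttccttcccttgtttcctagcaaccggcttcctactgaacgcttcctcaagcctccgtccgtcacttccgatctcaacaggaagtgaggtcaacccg
Ambra1: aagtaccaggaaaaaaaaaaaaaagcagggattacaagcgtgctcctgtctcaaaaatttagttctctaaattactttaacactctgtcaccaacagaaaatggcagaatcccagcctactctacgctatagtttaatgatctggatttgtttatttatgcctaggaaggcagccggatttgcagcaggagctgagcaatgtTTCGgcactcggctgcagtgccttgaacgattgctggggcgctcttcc
Nrbf2: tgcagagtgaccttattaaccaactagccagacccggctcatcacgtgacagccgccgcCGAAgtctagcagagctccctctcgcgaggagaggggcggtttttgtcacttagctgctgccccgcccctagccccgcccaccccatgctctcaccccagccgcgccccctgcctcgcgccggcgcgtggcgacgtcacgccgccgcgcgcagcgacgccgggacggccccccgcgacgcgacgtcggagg

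The letters TTCG were searched on both strands over the whole window of 300 bases. Of the 21263 such windows of protein-coding genes, 49.1% held at least 1 match. Windows that held the summit of a region of the combined list (1139 windows) had a match in 71.8% of cases, and the other 20124 in 47.8%. The former were also richer in CpG, with a median of 24 CpG per window against 12, so motif and CpG content moved together, and their parts were not tested.

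Among the 5 genes of the complex with a sequence, the window with the peak was not one with the motif. The Pik3r4 window, the only one of the 5 with a peak, had 0 matches and 13 CpG. Ambra1 had 3 matches, more than 93.1% of all windows, of which 1 is in the printed bases and the others lie after the start, where 2 matches start within 20 bases of each other. It had no peak. Such a close pair was present in 5.76% of all windows. Nrbf2 had 1 match and 40 CpG, the most CpG of the 5, and no peak. Atg14 had 1 match with 13 CpG and Uvrag 0 with 19 CpG, also without a peak. A match is not a binding site, and a window without one says only that these letters are not in it.

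**Figure D2:**
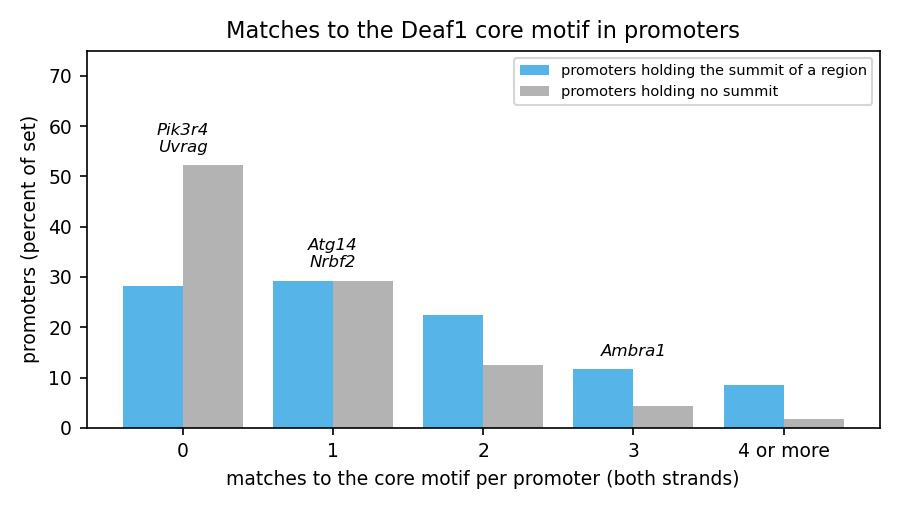
Share of promoters (percent of each set) with 0, 1, 2, 3 or 4 or more matches to the Deaf1 core motif on both strands, for the 1139 promoters that hold the summit of a region of the combined list and the 20124 that do not. Names mark the bin of each gene of the complex with a promoter sequence: Pik3r4 and Uvrag have 0 matches, Atg14 and Nrbf2 have 1, and Ambra1 has 3.

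Pik3c3, the catalytic subunit (chromosome 18, span 30265615 to 30348126), had the strongest signal of the complex in both libraries. Its peak ran from 30272698 to 30272932 in replicate 1 and from 30272655 to 30272926 in replicate 2, with summits 3 bp apart. In replicate 1, 41 fragments lay over the summit (95% exact Poisson interval 29.4 to 55.6) over a local background of 3.51, and in replicate 2 48 (35.4 to 63.6) over 2.69. These intervals cover counting error only, and they overlap between the libraries. The authors' fold enrichment, the ratio of signal to local background, was 9.30 in replicate 1 and 13.3 in replicate 2, a mean of 11.3 ± 2.8 (SD, n = 2). The higher fold in replicate 2 came with a lower local background as well as more fragments.

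Set among all peaks, Pik3c3 ranked 415th of 1860 by fold in replicate 1 and 224th of 3126 in replicate 2. Measured from the span ends alone, it differed from the other peaks of the complex. The summit lay inside the annotated span, 7187 bp (replicate 1) and 7190 bp (replicate 2) from the lower-coordinate end. The span covers all transcripts of the gene, curated and predicted, and starts of single transcripts were not used here for Pik3c3. The distance to a start inside the span was therefore not measured, and the peak may or may not lie at such a start. The nearest end of another protein-coding gene, of Rit2, was 701509 bp from the replicate 2 summit.

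The authors' irreproducible discovery rate (IDR) is a global value. It estimates the share of irreproducible regions among all those ranked at least as high, not the chance for a single region. At the Pik3c3 region it was 0.0105. The region stood 92nd of 1550 by IDR score, with a score of 820, where 540 stands for an IDR of 0.05 and 830 for 0.01. A score of at least 540 was reached by 608 regions. At that score Pik3c3 was the only 1 of the 7 genes with a region, against 4.08% of all genes. It fell just short of 830, which 75 regions reached and at which 0.525% of all genes had a region. The genes most like Pik3c3, by the mean log2 fold enrichment over both libraries of the strongest region within 1 kb of an end, were Zkscan1, with folds of 8.92 and 13.9, and Tomm20, with 9.28 and 13.3. Among 1506 genes with such a region, 81.3% had a lower mean than Pik3c3. The Pik3c3 region itself lay inside the span, more than 1 kb from either end, so it was not chosen by the same rule. Whether its position relative to a start is like theirs was not measured.

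Becn1, the regulatory subunit that most partners of the kinase bind (chromosome 11, span 101288258 to 101302286), had a weak peak in both libraries. The peak ran from 101302257 to 101302347 in replicate 1 and from 101302217 to 101302401 in replicate 2, and covered the higher-coordinate end of the gene. The summits lay 19 bp and 14 bp outside that end. In replicate 1, 16 fragments lay over the summit (95% exact Poisson interval 9.1 to 26.0) over a background of 2.64, and in replicate 2 34 (23.5 to 47.5) over 4.84. Replicate 2 was therefore higher in fragments by a factor of 2.12 and in local background by a factor of 1.83. The 2 intervals overlap.

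The fold enrichment at Becn1 was 4.68 in replicate 1 and 6.0 in replicate 2, a mean of 5.34 ± 0.93 (SD, n = 2), below the median of 7.88 over the regions of the combined list. By fold the peak ranked 1620th of 1860 in replicate 1, where it had the smallest width in the list, 91 bp, and 1751st of 3126 in replicate 2. In replicate 1 its q was 3.74e-05, which a q threshold of 1e-05 would remove. Its IDR of 0.513 is the highest value in the combined list, shared with the other regions at the lowest score, 377 in all. Becn1 was therefore in the least reproducible group of regions by the authors' measure, although a peak was present in both lists at the same place. The 2 closest genes by mean log2 fold were Gtse1, with folds of 5.19 and 5.44, and Arfip2, with 5.23 and 5.34. The nearest end of another gene, Cntd1, was 13599 bp from the replicate 2 summit. The next peaks on that side lay outside the window, 13671 bp (replicate 1) and 13635 bp (replicate 2) from the span, beside an end of Psme3, which encodes a proteasome activator. With 25 and 26 fragments and folds of 4.82 and 3.97, they were of similar modest strength.

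Pik3r4, the pseudokinase-like scaffold that anchors Pik3c3 (chromosome 9, span 105642995 to 105687655), had a peak in replicate 2 only. It ran from 105642919 to 105643042, wholly inside the promoter window printed above, from base 175 to base 298 of that window. The summit, at base 230, lay 21 bp before the annotated start. It had 23 fragments (95% exact Poisson interval 14.6 to 34.5) over a background of 2.09, the genome-wide level of that library, a fold enrichment of 7.77 and a q of 1.67e-13. Of the 13 CpG in the window, 10 lay under the peak. By fold it ranked 993rd of 3126, above Becn1 in the same library.

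Replicate 1 had no peak at Pik3r4, and its nearest was 472.3 kb from the span. At equal enrichment, 23 fragments in replicate 2 correspond to 19.8 in replicate 1 (12.6 to 29.8), from the ratio of 1.16 between the genome-wide backgrounds. Over the regions of the combined list the median ratio of summit fragments was larger, 1.31, which would give fewer. Summits with as few as 10 fragments were called at the genome-wide background of replicate 1, though only 2 peaks had that height. The number of fragments that replicate 1 had there was not measured here. Of the 572 replicate 2 peaks with 21 to 25 fragments, 45.5% overlapped a peak of replicate 1, whereas the share was 93.7% for peaks within 2 fragments of Pik3c3 and 89.7% within 2 of Becn1. A peak of the height seen at Pik3r4 was thus missing from replicate 1 about as often as it was found there.

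**Figure D3:**
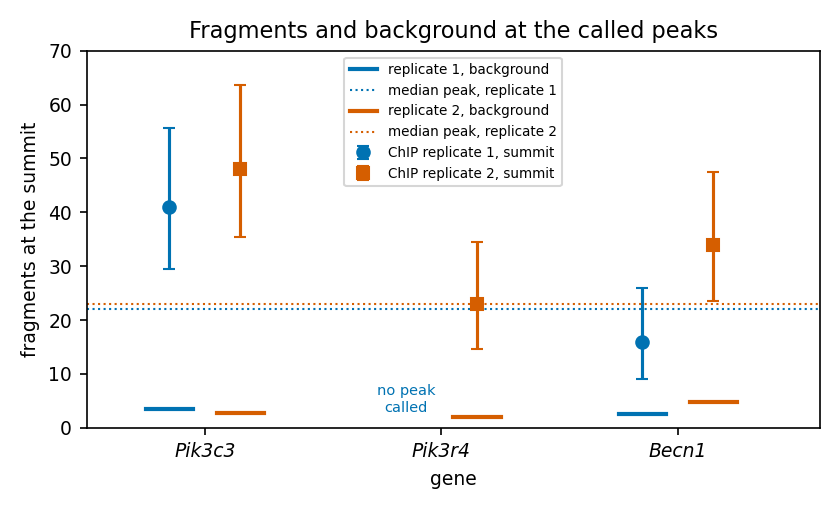
Fragments at the peak summit of ChIP replicate 1 (circles) and replicate 2 (squares) at the 3 genes with a called peak, with 95% exact Poisson intervals, the local background (short bars) and the median over all peaks of each library (dotted lines, 22 and 23). Pik3c3 stands above both medians in both libraries, Becn1 has 16 and 34 fragments, and Pik3r4 has 23 in replicate 2 and no peak in replicate 1.

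The 4 other genes had no summit near. Ambra1 (chromosome 2, span 91730138 to 91918849) came closest to the window: a replicate 2 peak with 22 fragments and a fold of 5.90 lay 19271 bp outside its span, 15 bp from an end of Harbi1. This peak was 270 bp from an end of Atg13, which encodes a subunit of the ULK kinase complex that acts upstream, and it had no partner in replicate 1. The nearest replicate 1 peak was 80.0 kb from Ambra1, 11 bp from an end of Arhgap1.

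For Atg14 (chromosome 14, span 47540893 to 47568434) the nearest peaks were 122.6 kb away in replicate 1 and 122.7 kb in replicate 2, both near an end of Dlgap5. For Uvrag (chromosome 7, span 98886742 to 99141167) they were 240.3 kb away in both libraries, at Gdpd5, and had 49 and 65 fragments. For Nrbf2 (chromosome 10, span 67266689 to 67285343) they were 251.0 and 250.8 kb away, and the closest gene was Egr2. Over all 7 genes and both libraries, the summits outside a span but inside the window were at most 21 bp from it, and the first beyond the window was 13635 bp away, so the width of the window decided none of the counts. The lists hold called peaks only, and no called summit had fewer than 10 fragments. Where the local background is above the genome-wide level, a call needs more fragments. The local background at these genes was not measured, so the height below which signal went undetected there is not known.

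Depth limits these statements. The lists had 1860 peaks in replicate 1 and 3126 in replicate 2, and the genome-wide background was 1.8 and 2.09 fragments. The median summit had 22 fragments (95% exact Poisson interval 13.8 to 33.3) and 23 (14.6 to 34.5). In replicate 1, 92.4% of the peaks overlapped a peak of replicate 2, and in replicate 2 50.4% overlapped one of replicate 1. Over the 1550 regions of the combined list the fold was higher in replicate 2 by a median factor of 1.13, and the ratios were 1.43 at Pik3c3 and 1.28 at Becn1. On the log2 scale these lay 0.33 and 0.18 above the median, less than the SD of 0.51 over regions.

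Around the complex, 56 other genes of the PI3P pathway were listed by role, and 55 were matched. Peaks were present at 14 of the 55 in replicate 1 (background 9.68%), at 20 in replicate 2 (14.5%), and regions of the combined list at 14 (9.01%). The shares were 25.5%, 36.4% and 25.5%. With a score of at least 540, 5 of the 55 kept a region (background 4.08%). The mean fold of the strongest region ran from 6.17 to 21.3, with a median of 7.77, against 7.88 over all regions. The shares were above the background, at ordinary strength, but some of the listed genes were known to be bound when the list was made. The difference therefore cannot be read as a trait of the pathway, and it was not tested. Regions at Trim28, Prkaa1 and Hgs also lay nearest to ends of other genes.

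Of the regulators of the kinase, 7 of 19 had a region within the window (36.8%, against 9.01% of all genes). At a score of at least 540, 4 kept one (4.08% of all genes had one). Usp10, a deubiquitinase that stabilises Becn1, had the strongest, with folds of 19.6 and 23.0, 54 and 70 fragments and an IDR of 0.00832. Its summits lay inside the gene, 781 and 805 bp from the end. Klhl20, a ubiquitin ligase adaptor that ends autophagy by degrading complex subunits, followed with folds of 15.01 and 12.3. Vmp1, a membrane protein of the endoplasmic reticulum needed for autophagosome formation, had 9.90 and 8.91. Its summit was 25 bp from its own end and 213 bp from that of Ptrh2 in replicate 2.

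The Rab GTPases that recruit or answer to the kinase on endosomes were among the regulators too. Rab7 had folds of 8.21 and 10.0, Rab5a 8.13 and 8.09, and Rab5c 6.97 and 6.67, with no summit over 108 bp from its own gene end. The IDR was 0.0316 at Rab7, 0.0933 at Rab5a and 0.191 at Rab5c. Trim28, a corepressor also described as a ligase for Pik3c3, counted in the combined list only through regions 3661 and 4906 bp outside its span, whose nearest gene ends were those of Chmp2a and Ube2m. They cannot be given to Trim28. Replicate 2 alone also had a peak 148 bp from an end of Trim28 itself, with 20 fragments and a fold of 6.80. Weaker ones lay 918 and 929 bp from an end of Trim28, but nearer to an end of Gm31649, at 474 and 492 bp.

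Of the upstream kinases, 2 of 6 had a region (33.3%, against 9.01% of all genes). With a score of at least 540, 0 kept one (4.08% of all genes had one). Atg101, a ULK complex subunit, had folds of 4.47 and 7.87, with the summits 330 and 328 bp outside its end. Prkaa1, a catalytic subunit of the energy sensor AMPK, counted through a region with folds of 4.65 and 8.71 that lay 216 bp from an end of Ttc33 and 3807 bp from its own.

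Of the PI3P-binding effectors, 3 of 17 had a region (17.6%, against 9.01% of all genes). With a score of at least 540, 1 kept it (4.08% of all genes had one). Wdr45b, a WIPI family protein, had folds of 6.42 and 9.07, and Rbsn, an endosomal tether, had 7.50 and 8.09, both at their own ends. The region at Hgs, an endosomal sorting protein, had folds of 6.67 and 5.83 and was 17 bp from an end of Mrpl12 in replicate 2. A peak 62 bp from an end of Hgs itself, with 26 fragments and a fold of 6.92, was called in replicate 2 alone. Among the enzymes that make, convert or remove PI3P, 2 of 13 had a region (15.4%, against 9.01% of all genes). Of these, 0 kept it at a score of at least 540 (4.08% of all genes had one). Both were phosphatases of the myotubularin family: Mtmr4, with folds of 6.33 and 7.46, and Mtmr14, with 7.85 and 6.57.

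**Figure D4:**
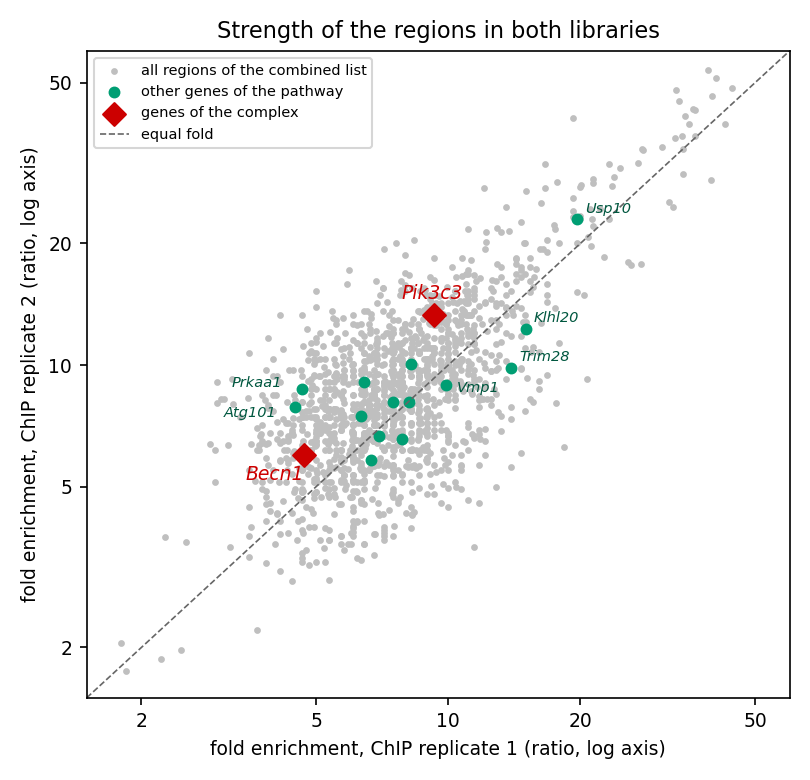
Fold enrichment (ratio, log axes) in ChIP replicate 1 and replicate 2 for the 1550 regions of the combined list (grey), the strongest region of each of the 14 other pathway genes (green, 6 of them named) and Pik3c3 and Becn1 (red diamonds); the dashed line marks equal fold. Pik3c3 lies in the upper part of the cloud at 9.30 and 13.3, and Becn1 in the lower part at 4.68 and 6.0.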

How the data were processed

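Peak lists of the 2 ChIP libraries and a combined list were analysed; the inputs enter only through the local background. Per the submitters' processing notes, the tools were FastQC 0.11.8, BWA 0.7.17-r1198 and MACS2 2.1.2, with the build mm10; duplicate handling and filters are not given in the sources used here. The labels' protocols mention both fixation and native ChIP-seq, a conflict not settled. In the deposited peak lists, the fold enrichment is a ratio of signal to background at the summit, p and q values are −log10 values, and the score is the caller's display value. The deposited combined list gives a score and a −log10 global IDR per region. A further 6 columns hold values of single samples and stayed unused.

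Fragments and background at each summit were recovered by matching fold = (fragments + 1)/(background + 1) to the Poisson p, and the largest mismatch in −log10 p was 5.1e-05. On simulated data 100% of 1000 summits were recovered. A region took the summit and folds of its strongest overlapping peaks. Peaks counted as shared when at least 1 bp overlapped. Ends came from a RefSeq table (GRCm38.p6) with 1 span per gene and no strand. Genes on chromosomes 1 to 19, X and Y were used. Coordinates are 1-based.

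Members, lists, rules and tests were chosen with earlier results of these data known. Named were the 7 members, the gene whose end is nearest to a peak, the nearest peak where there was none, pathway genes with a region in the combined list, and the closest genes by mean log2 fold above and below. Atg13 was named after its values were seen. No test between conditions was possible with 1 group. Alternatives covered the window, q and IDR thresholds, overlap, replicates left out, the fold formula and the strand of the motif. Python 3.11.15, pandas 2.3.3 and scipy 1.17.1 were used.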

Additional observations from a re-analysis of the deposited data

How the results depend on the processing

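At a −log10 q of at least 5, the genes with a peak in replicate 1 fell from 2 to 1 and the genes with a shared peak from 2 to 1. A reciprocal overlap of at least 50% also left 1 shared, since the replicate 1 peak at Becn1 spans 91 of the 185 bp in replicate 2. Each time Becn1 was lost and Pik3c3 was left. The combined list gave 1 gene at a score of at least 540, again Pik3c3, and 0 at 830, where Pik3c3 was lost too. With either replicate left out, the genes with a peak in place of a region ran from 2 to 3, and those with one within 1 kb of a gene end from 1 to 2, the addition being Pik3r4 from replicate 2. The mean fold ran from 9.30 to 13.3 at Pik3c3 and from 4.68 to 6.0 at Becn1. Dividing fragments by background without the added 1 raised them to 14.75 and 6.55. On the printed strand alone, Nrbf2 had 0 motif matches. Windows of 1 or 10 kb, counting peaks by any overlap with the window, summits within 100 bp and end distances of 500 bp or 5 kb left the counts as they were. Distances to starts in the promoter table were not run as an alternative, since neither gene with a region has an entry. No paired analysis was possible because values of the inputs were not used here and the ChIP libraries are 1 group.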
